A study of Homo sapiens with 24 samples.

Results

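The mRNAs of 10 decapping and 5′ to 3′ decay factors were followed in human U2OS cells after transcription had been stopped. The members were DCP2, DCP1A, DCP1B, EDC3, EDC4, LSM1, PATL1, LSM14A, DDX6 and XRN1, taken by gene symbol from a table of 22925 symbols, with the transcripts of a gene summed. Bulk decay of mRNA begins with shortening of the poly(A) tail. The cap is then removed by DCP2 with its partners DCP1A or DCP1B, helped by EDC3, EDC4 and the LSM1, PATL1, DDX6 and LSM14A proteins, and the exonuclease XRN1 degrades the body of the RNA from its 5′ end. These proteins gather in P-bodies, and tail shortening by the PAN2-PAN3 deadenylase lies upstream of them.

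U2OS is an established osteosarcoma line. Cells received a control siRNA, an siRNA labelled for the long isoform of PAN3, another labelled for the short isoform, or both siRNAs, and all were then given actinomycin D, which blocks transcription. Cytoplasmic RNA was sequenced at 0, 0.5, 1, 2, 4 and 6 h, so that 24 libraries formed 4 series of 6 times with 1 library at each time. The study asked what PAN3 isoforms do in global mRNA decay, and the comparisons here describe the transcripts of the decay machinery itself.

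Values are the deposited FPKM, fragments scaled to transcript length and library size, which summed to between 324023 and 384231 per library. Between 8973 and 9704 genes reached 1 FPKM in a library, and read depth is unknown. Of the mesenchymal markers listed for the line, 3 of 8 had a mean of at least 1 FPKM, led by VIM at 636. The means of COL1A2, SPARC, RUNX2, CDH2 and FN1 were 0.014, 0.433, 0.514, 0.005 and 0.387 FPKM. The list summed to between 28.5 and 1166 FPKM per library. In the library with the lowest sum VIM was thus at most 28.5 FPKM or a dash, and the reason was not tested. None of 8 markers of other cell types reached a mean of 1 FPKM, and they summed to between 0.0458 and 0.665 FPKM. PAN3 stood at a mean of 0.988 ± 0.847 FPKM in the control series (SD, n = 6 times). It stood at 0.898 ± 0.556 in the long-labelled series, below the control at 4 of 6 times (exact sign-flip p = 0.812). In the short-labelled series it was at 2.51 ± 0.901, above the control at 6 of 6 times (exact p = 0.0312, no smaller p being possible with 6 pairs, and 0.0938 adjusted over 3 series). In the both-labelled series it was at 1.45 ± 0.759, above the control at 4 of 6 times (exact p = 0.406). Because PAN3 was not found lower in any of them by this test, the series are called long-labelled, short-labelled and both-labelled, and every direction rests on those labels. PAN3 was low, with a control range of 0 to 2.40 FPKM, and was summed per gene, so the level of a single isoform was not tested. Times are not replicates of a condition, and all times of a series may come from 1 transfection. The exact p-values set the PAN3 differences against changes of sign over the 6 pairs. Every other p-value sets a difference against the scatter of single libraries about a fitted model, an estimate that all series share. For levels that model holds series and time, so differences in course between series add to the scatter.

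The 3′ untranslated regions (UTRs) of 8 members could be matched to a GENCODE v29 transcript (GRCh38). DCP2 had the longest of the 8, at 7486 bases, followed by DDX6 with 4339, DCP1A with 4152, LSM14A with 2127 and PATL1 with 1674. EDC4, LSM1 and DCP1B had short ones of 355, 349 and 152 bases. The median over the tested genes was 998 bases. The pentamer ATTTA, the core of AU-rich elements, occurred 24 times in DCP2, 10 times in DCP1A, 9 times in DDX6, 4 times in PATL1, 3 times in LSM14A and once in LSM1, and not in EDC4 or DCP1B. It occurred at least once in 68.9% of the tested genes' UTRs, with a median of 2. The longer AU-rich nonamer TTATTTATT was in none of the 8 and in 7.93% of all. The Pumilio-type octamer TGTANATA, searched on the sense strand, occurred 3 times in LSM14A, 2 times in both DDX6 and DCP2, once in PATL1 and once in LSM1. Of all tested genes, 26.5% had a match, a share not matched to the members for UTR length. Whether matches go with the courses was not tested. A match is a description of the sequence and not a site of binding. The matches in LSM14A (chromosome 19), DDX6 (chromosome 11) and DCP2 (chromosome 5), the members with more than 1 match, are shown 5′ to 3′ with the octamer in capitals.
LSM14A at base 956 of the UTR: cagtatacaaaTGTAAATAatcacagatga
LSM14A at base 1718 of the UTR: agaaagaaaacTGTAAATActagttctact
LSM14A at base 2103 of the UTR: cccctcctgtgTGTAAATAaaatacttctg
DDX6 at base 716 of the UTR: ttcatccgcacTGTAAATAcatgtatttaa
DDX6 at base 993 of the UTR: ttgtataacttTGTAAATAagttttttttc
DCP2 at base 840 of the UTR: tattccagttgTGTAAATAtgtatggaaaa
DCP2 at base 7319 of the UTR: aagctttttgaTGTAAATAataggttagaa
All 7 read TGTAAATA. The match in LSM14A at base 2103 overlaps an AATAAA hexamer, the usual polyadenylation signal, and lies 25 bases from the annotated end of the transcript.

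Levels of the members differed widely. In the control series the highest mean FPKM was that of LSM1, at 36.1 ± 2.3, followed by EDC3 at 31.0 ± 0.941, EDC4 at 20.7 ± 1.45, LSM14A at 16.9 ± 1.83 and PATL1 at 13.5 ± 5.36 (SD over 6 times). DDX6 stood at 6.46 ± 2.95 FPKM, DCP1A at 4.22 ± 2.11, DCP2 at 1.20 ± 0.192 and XRN1 at 0.502 ± 0.703. The ranges of LSM1 and EDC3 overlapped, as did those of EDC4 and LSM14A, of LSM14A and PATL1, of DDX6 and DCP1A, and of DCP2 and XRN1. EDC3 and EDC4, PATL1 and DDX6, and DCP1A and DCP2 are the other neighbours in that order; EDC3 did not overlap EDC4, DCP1A did not overlap DCP2, and PATL1 overlapped DDX6 through its 4 h library. DCP1B was listed at 0 in 23 of 24 libraries and at 0.0151 FPKM in the control library of 4 h.

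Genes were tested when their mean was at least 1 FPKM, no value was a dash, and no 0 stood next in time to a value of 1 FPKM or more. That left 7860 genes and 7 of the 10 members: DCP2, DCP1A, EDC3, EDC4, LSM1, PATL1 and LSM14A. DCP1B and XRN1 had too low a mean, and DDX6 had 0 at 4 and 6 h of the long-labelled series after 1.78 FPKM at 2 h. Level differences are means over the 6 matched times on the log2(FPKM + 0.1) scale after subtraction of the library's median, with their standard error (SE). That scale understates the changes of low genes. A gene was called at a Benjamini-Hochberg adjusted p under 0.05 in limma, over all tested genes. For the 7 tested members, between 40 and 43 alternative settings were run for each control slope, mean slope and difference between series. Among them were leaving out each of the 24 libraries and each of the 6 times. None was run for slopes within the long-labelled, short-labelled or both-labelled series, or for single genes of the further pathway list. DDX6 was fitted only with its zeros kept or missing. The comparisons against the control share its 6 libraries.

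**Figure D1:**
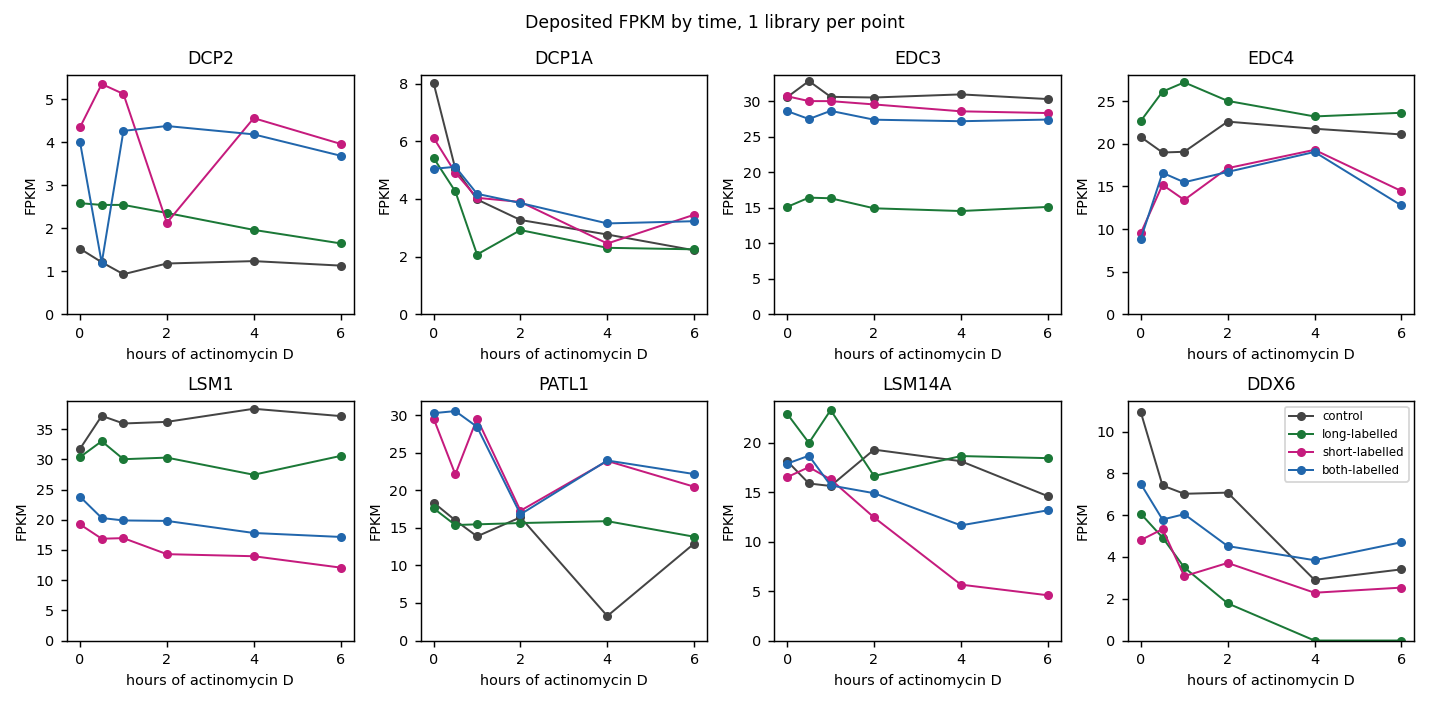
Deposited FPKM (vertical axis, from 0) against hours of actinomycin D (horizontal axis) for 8 members, with 1 point per library and 1 line per series. LSM14A falls from 16.5 to 4.58 FPKM in the short-labelled series, EDC3 lies at 14.5 to 16.4 FPKM in the long-labelled series, and LSM1 separates the short-labelled and both-labelled series from the other series.

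DCP2, the catalytic subunit that cuts the cap, had the lowest control level of the members tested and was higher in every siRNA series than in the control. It was listed at 1.53, 1.21, 0.931, 1.18, 1.24 and 1.13 FPKM at 0, 0.5, 1, 2, 4 and 6 h of the control series, and at 2.58, 2.54, 2.54, 2.36, 1.96 and 1.65 FPKM in the long-labelled series. In the short-labelled series it stood at 4.35, 5.36, 5.13, 2.13, 4.56 and 3.97 FPKM, and in the both-labelled series at 4.01, 1.19, 4.27, 4.38, 4.19 and 3.69. The long-labelled and short-labelled values were all above the control range, while the both-labelled library of 0.5 h lay within it and the short-labelled library of 2 h lay within the long-labelled range. The level was 0.91 ± 0.27 log2 units above the control in the long-labelled series (1.87-fold, limma adjusted p = 0.00834), 1.78 ± 0.27 in the short-labelled (3.44-fold, adjusted p = 1.33e-05) and 1.49 ± 0.27 in the both-labelled series (2.81-fold, adjusted p = 9.69e-05). These 3 calls were kept in each of 42 alternatives. DCP2 was 0.88 ± 0.27 log2 units higher in the short-labelled than in the long-labelled series (adjusted p = 0.00804). The both-labelled series was 0.58 ± 0.27 above the long-labelled one (adjusted p = 0.0700), and 0.90 above it without the both-labelled library of 0.5 h (adjusted p = 0.000440; up to 0.215 over the alternatives).

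DCP1A, the activating partner of DCP2, showed no called level difference from the control in the main fit. Between 0 and 6 h it went from 8.02 to 2.22 FPKM with the control siRNA. The other starts and ends were 5.42 and 2.25 FPKM (long-labelled), 6.12 and 3.45 (short-labelled) and 5.05 and 3.23 (both-labelled), and the ranges of all 4 series overlapped. Against the control its level was −0.30 ± 0.13 log2 units in the long-labelled series (lower at 5 of 6 times, adjusted p = 0.0694), 0.13 ± 0.13 in the short-labelled (adjusted p = 0.400) and 0.13 ± 0.13 in the both-labelled series (adjusted p = 0.412). The first of these was called in 5 of 42 alternatives, among them no centring (adjusted p = 0.0404) and leaving out the control library of 6 h (−0.39, adjusted p = 0.0225) or the both-labelled library of 0 h (adjusted p = 0.0460; from 0.0225 to 0.349 over the alternatives). DCP1A was higher than in the long-labelled series by 0.44 ± 0.13 in the short-labelled (6 of 6 times, adjusted p = 0.00873) and by 0.44 ± 0.13 in the both-labelled series (5 of 6 times, adjusted p = 0.0104). Both calls were lost without time as a block (adjusted p = 0.127 and 0.145; ranges over the alternatives 0.00377 to 0.127 and 0.00207 to 0.145), and the call against the both-labelled series was also lost without the 1 h libraries (adjusted p = 0.0596).

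EDC3, a scaffold that binds DCP1, DCP2 and DDX6, was lower in the long-labelled series. It was listed at 14.5 to 16.4 FPKM there (median 15.1), against 30.3 to 32.9 in the control (median 30.6), 28.3 to 30.7 in the short-labelled (median 29.8) and 27.2 to 28.7 in the both-labelled series (median 27.5). The long-labelled range lay far below the other ranges, the both-labelled range lay just below that of the control, and the short-labelled range overlapped both. The difference from the control was −0.96 ± 0.04 log2 units in the long-labelled series (0.515-fold, adjusted p = 3.15e-13, kept in 43 of 43 alternatives). EDC3 was not lower by this extent in the both-labelled series, whose cells were labelled as having received the same siRNA: it stood at −0.08 ± 0.04 against the control (adjusted p = 0.0495) and was 0.87 ± 0.04 higher than in the long-labelled series (adjusted p = 1.14e-12). The first of these was lost in 31 of 43 alternatives, 20 of them single libraries left out (adjusted p from 0.000943 to 0.337), and reached −0.16 without centring. In the short-labelled series EDC3 was at 0.02 ± 0.04 against the control (adjusted p = 0.687) and 0.98 ± 0.04 above the long-labelled series (adjusted p = 1.35e-13). Of its 3 transcripts in the table, 2 had reads, and the main one stood at means of 27.3 FPKM for the control siRNA and 14.1 FPKM for the long-labelled one.

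EDC4, the large scaffold that joins DCP1A to DCP2, was lower in both series with the short-labelled siRNA. In time order its FPKM were 20.8, 18.98, 19.1, 22.6, 21.8 and 21.1 with the control siRNA, and in the long-labelled series 22.7, 26.1, 27.2, 25.0, 23.2 and 23.6. They were 9.52, 15.2, 13.4, 17.1, 19.3 and 14.5 in the short-labelled and 8.85, 16.6, 15.5, 16.7, 19.04 and 12.8 in the both-labelled series. The lowest value of both of these series was that of 0 h, and only their 4 h libraries reached the control range. EDC4 was −0.42 ± 0.12 log2 units from the control in the short-labelled series (adjusted p = 0.00501) and −0.44 ± 0.12 in the both-labelled series (adjusted p = 0.00401), lower at 6 of 6 times in both. Without time as a block both calls were lost (adjusted p = 0.0588 and 0.0517; lowest over the alternatives 0.00139 and 0.00143). Against the long-labelled series EDC4 was at −0.72 ± 0.12 in the short-labelled (adjusted p = 4.46e-05) and −0.73 ± 0.12 in the both-labelled series (adjusted p = 4.52e-05), kept in 43 of 43 alternatives each. Its difference of 0.29 ± 0.12 between the long-labelled series and the control (adjusted p = 0.0479) was lost in 27 of 43 alternatives, 14 of them single libraries left out (adjusted p from 0.00949 to 0.231).

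**Figure D2:**
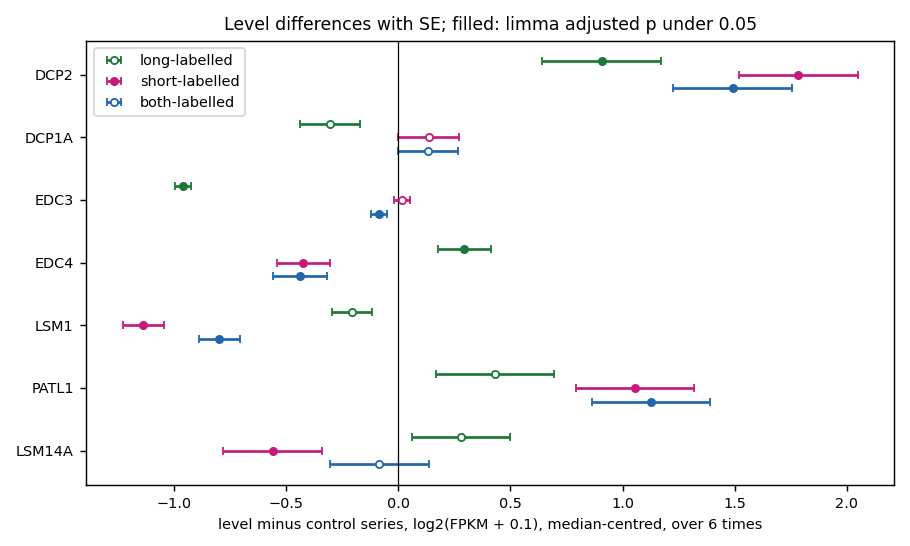
Level of the 7 tested members minus the control series, in log2(FPKM + 0.1) units after median centring (horizontal axis), as the mean over 6 times with its SE, for each of the siRNA series against it. Filled points have a limma adjusted p under 0.05. EDC3 lies at −0.96 in the long-labelled series, and LSM1 at −1.14 and −0.80 in the short-labelled and both-labelled series.

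LSM1, the subunit that sets the cytoplasmic LSM1-7 ring apart from the nuclear one, was lower in both series with the short-labelled siRNA. Its FPKM in time order were 31.8, 37.2, 35.9, 36.2, 38.4 and 37.2 with the control siRNA, 30.4, 33.0, 30.0, 30.3, 27.5 and 30.6 in the long-labelled, 19.2, 16.9, 17.0, 14.3, 13.96 and 12.1 in the short-labelled and 23.8, 20.3, 19.9, 19.8, 17.8 and 17.2 in the both-labelled series. Every short-labelled and both-labelled value lay below every control and long-labelled value, and the short-labelled value was the lowest of the 4 at each time. The difference from the control was −1.14 ± 0.09 log2 units in the short-labelled series (0.455-fold, adjusted p = 4.94e-09) and −0.80 ± 0.09 in the both-labelled series (0.575-fold, adjusted p = 5.27e-07), and both calls were kept in 43 of 43 alternatives. LSM1 was the only tested member called between these series: it was 0.34 ± 0.09 higher in the both-labelled than in the short-labelled series (6 of 6 times, adjusted p = 0.0144). Leaving out the 2 h libraries (adjusted p = 0.0741), or using no filter on low values, ended that call. Against the long-labelled series the differences were −0.93 ± 0.09 (adjusted p = 6.51e-08) and −0.59 ± 0.09 (adjusted p = 2.24e-05). The long-labelled series itself was at −0.21 ± 0.09 from the control, lower at 6 of 6 times (adjusted p = 0.0643). This was called in 10 of 43 alternatives (adjusted p from 0.00560 to 0.205), among them only the 12 libraries compared and leaving out the control library of 0 h (−0.29), the long-labelled of 6 h, or the short-labelled of 0 or 6 h.

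PATL1, which bridges the LSM1-7 ring and the decapping enzyme, was higher in the short-labelled and both-labelled series. It was listed at 18.4, 16.0, 13.9, 16.4, 3.26 and 12.9 FPKM with the control siRNA, where the value of 4 h stood apart, and at 17.6, 15.4, 15.5, 15.6, 15.9 and 13.8 in the long-labelled series. In the short-labelled series it was at 29.6, 22.1, 29.6, 17.3, 23.9 and 20.5 FPKM, and in the both-labelled series at 30.3, 30.6, 28.5, 16.8, 23.98 and 22.2. At each time both lay above the control, with ranges that overlapped through their 2 h libraries. PATL1 was 1.05 ± 0.26 log2 units above the control in the short-labelled (2.08-fold, adjusted p = 0.00198) and 1.13 ± 0.26 in the both-labelled series (2.18-fold, adjusted p = 0.00119). Without the control library of 4 h these differences were 0.69 (adjusted p = 8.30e-05) and 0.76 (adjusted p = 3.20e-05), where adjusted p ranged up to 0.0261 and 0.0186 over 43 alternatives. Against the long-labelled series PATL1 was higher by 0.62 ± 0.26 in the short-labelled (adjusted p = 0.0467) and by 0.69 ± 0.26 in the both-labelled series (adjusted p = 0.0313). The former was lost in 24 of 43 alternatives, 17 of them single libraries left out (adjusted p from 0.000119 to 0.141), and the latter in 11, with 7 single libraries: 4 of the long-labelled series (0, 0.5, 1 and 6 h) and 3 of the both-labelled (0.5, 1 and 4 h; adjusted p from 4.96e-05 to 0.102). In the long-labelled series it was at 0.43 ± 0.26 from the control (adjusted p = 0.184), and at 0.07 without the control library of 4 h.

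LSM14A, a P-body protein that binds DDX6 and represses translation, changed with time in the short-labelled series more than in level. It was listed at 18.1, 15.9, 15.6, 19.3, 18.1 and 14.6 FPKM with the control siRNA and at 22.9, 20.0, 23.3, 16.6, 18.6 and 18.4 in the long-labelled series. It was at 16.5, 17.5, 16.3, 12.4, 5.65 and 4.58 FPKM in the short-labelled series and at 17.9, 18.7, 15.7, 14.9, 11.6 and 13.2 in the both-labelled series. Up to 1 h the short-labelled values lay within the control range, and from 2 h on they lay below it. The mean level was −0.56 ± 0.22 log2 units from the control (adjusted p = 0.0336), a call lost in 11 of 43 alternatives, among them leaving out the short-labelled library of 4 or 6 h or the control library of 2, 4 or 6 h (adjusted p from 0.0130 to 0.188); the difference was −0.36 with the last short-labelled library left out. Against the long-labelled series the difference was −0.84 ± 0.22 (adjusted p = 0.00287, lower at 6 of 6 times and kept in 43 of 43 alternatives). The long-labelled and both-labelled series were at 0.28 ± 0.22 and −0.08 ± 0.22 from the control (adjusted p = 0.307 and 0.759).

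DDX6, the DEAD-box helicase that links repression to decapping, was left out of the main fit for its zeros and was fitted as an alternative, with the zeros missing or kept. It was listed at 10.9, 7.42, 7.02, 7.08, 2.90 and 3.41 FPKM in the control, at 6.07, 4.93, 3.499, 1.78, 0 and 0 in the long-labelled, at 4.81, 5.33, 3.08, 3.71, 2.29 and 2.53 in the short-labelled and at 7.49, 5.79, 6.05, 4.52, 3.84 and 4.70 in the both-labelled series. All 4 courses ended below their start, and the long-labelled and short-labelled values lay below the control at each of the 6 times. With the 2 zeros missing, so that 22 libraries entered the fit, DDX6 was −0.89 ± 0.21 log2 units from the control in the long-labelled (adjusted p = 0.00263), −0.66 ± 0.18 in the short-labelled (adjusted p = 0.00629) and −0.08 ± 0.18 in the both-labelled series (adjusted p = 0.740). DDX6 was 0.58 ± 0.18 higher in the both-labelled than in the short-labelled series (6 of 6 times, adjusted p = 0.0477). With the zeros kept only the first of these calls held, at −2.37 ± 0.65 in the long-labelled series (adjusted p = 0.00684), and the short-labelled series was at −0.65 ± 0.65 (adjusted p = 0.422). XRN1, the exonuclease itself, was at or under 2.04 FPKM and listed at 0 in 5 libraries. Its median was 0.280 FPKM in the control, 0.428 in the long-labelled, 1.45 in the short-labelled and 1.36 in the both-labelled series, with ranges that overlapped.

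Counts of called members have to be read beside the share of all tested genes, given with each. Against the control, 1 of 7 members was lower and 2 higher in the long-labelled series, where 24.1% and 27.1% of all tested genes were lower and higher. In the short-labelled series 3 were lower and 2 higher, against 30.7% and 32.7% of all tested genes. In the both-labelled series 3 were lower and 2 higher, against 29% and 33%. Between the short-labelled and long-labelled series all 7 tested members were called, 3 lower in the short-labelled (EDC4, LSM1, LSM14A) and 4 higher (DCP1A, DCP2, EDC3, PATL1), where 32.3% and 31.7% of all tested genes were called. Between the both-labelled and long-labelled series 2 were lower and 3 higher, against 28% and 29.4%, and between the both-labelled and short-labelled series 0 were lower and 1 higher, against 8.13% and 9.41%. The median difference of the 7 members was 0.28 log2 units in the long-labelled, 0.02 in the short-labelled and −0.08 in the both-labelled series, where the medians of all tested genes were 0.03, 0.03 and 0.03.

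The courses after actinomycin D were compared as slopes in log2 units per h relative to the median tested gene of each library. The median log2 value of the tested genes itself moved from 3.725 at 0 h to 3.401 at 6 h in the control series, so a positive slope can belong to an RNA that kept its FPKM. In the control series DCP1A had a slope of −0.19 ± 0.06 (adjusted p = 0.0126), a call lost without the control library of 0 h (−0.13, adjusted p = 0.106) or of 6 h (−0.26, adjusted p = 0.0531), with adjusted p from 0.00366 over the alternatives. EDC3 at 0.05 ± 0.01 (adjusted p = 0.00277) and LSM1 at 0.08 ± 0.02 (adjusted p = 0.000876) rose against the median gene. Both of these calls were lost without centring, where EDC3 was at −0.01 and LSM1 at 0.02 (adjusted p up to 0.932 and 0.300 over the alternatives). These are 1 of 7 members lower and 2 higher, where 16.7% and 30.1% of all tested genes were called. The slopes of PATL1 (−0.14 ± 0.09), LSM14A (0.03 ± 0.03), DCP2 (0.04 ± 0.09) and EDC4 (0.08 ± 0.05) were not called in the control series. Without the control library of 6 h PATL1 was at −0.52 and was called (adjusted p = 0.000726), and its mean slope over the 4 series went from −0.04 to −0.14 (adjusted p = 0.390 and 0.00263); without the control library of 4 h its control slope was −0.01. Adjusted p ranged up to 0.906 and 0.957 over the alternatives.

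Over the mean of the 4 series DCP1A (−0.12 ± 0.03, adjusted p = 0.00175) and LSM14A (−0.08 ± 0.02, adjusted p = 0.000309) were lost faster than the median gene, and EDC3 (0.03 ± 0.01, adjusted p = 4.96e-05) and EDC4 (0.08 ± 0.03, adjusted p = 0.0161) more slowly or not at all. This is 2 of 7 members in either direction, beside 24.5% of all tested genes lower and 42.7% higher. Without centring, and with quantile normalisation, 3 members were lower and 0 higher. LSM1 was not called in the main fit (0.01 ± 0.01, adjusted p = 0.364), and its direction depended on the setting. It was called lower without centring (−0.04, adjusted p = 0.00105) and with quantile normalisation (−0.02, adjusted p = 0.0333). It was called higher without a filter (0.06, adjusted p = 0.000140) and with a filter at 0.1 FPKM (0.03, adjusted p = 0.00502). The slope of DCP1A was −0.08 without the 0 h libraries and −0.20 without those of 6 h, and was called in 40 of 40 alternatives. Of the 4 courses of LSM14A the short-labelled was the steepest, at −0.31 ± 0.03 (adjusted p = 2.01e-06), beside 0.03 ± 0.03 for the control, 0.00 ± 0.03 for the long-labelled and −0.05 ± 0.03 for the both-labelled libraries. The mean slope of LSM14A lost its call without a filter on low values (−0.04, adjusted p = 0.0657, the highest over the alternatives). EDC4 lost its call without the 0 h libraries (0.04, adjusted p = 0.0909), without the 4 h libraries (adjusted p = 0.0755) and without centring (0.03, adjusted p = 0.336, the highest over the alternatives). Its slope was 0.12 without the both-labelled library of 6 h. EDC3 turned to −0.01 without centring. DDX6, with its zeros missing, had a slope of −0.30 ± 0.05 over the 4 series (adjusted p = 7.57e-05) and −0.22 ± 0.05 in the control, over 0 to 6 h (adjusted p = 0.00309). In the long-labelled series the slope of DDX6 was −0.80 ± 0.18 in the 4 remaining libraries, which cover only 0 to 2 h (adjusted p = 0.00297). Over 0 to 6 h it was at −0.12 ± 0.05 in the short-labelled (adjusted p = 0.0793) and −0.06 ± 0.05 in the both-labelled series (adjusted p = 0.380), neither called. With the zeros kept the control slope was not called (adjusted p = 0.0791).

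**Figure D3:**
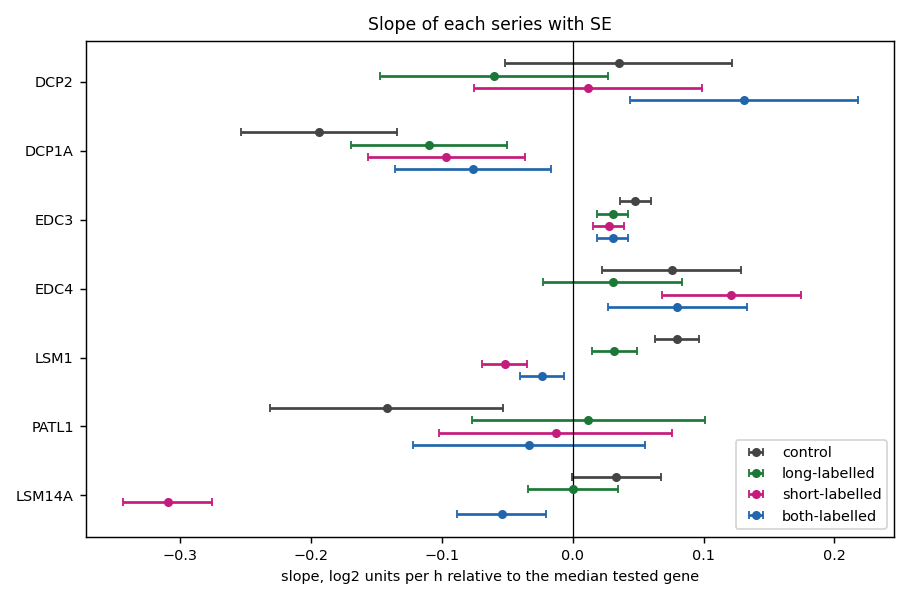
Slope of the 7 tested members in each series, in log2 units per h relative to the median tested gene (horizontal axis), with its SE. LSM14A in the short-labelled series lies at −0.31, away from its other series, and LSM1 lies at −0.05 there and at 0.08 in the control.

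Slopes differed from the control in 2 members, both with a lower slope in the short-labelled series, where 4.64% of all tested genes were called lower and 4.21% higher. LSM14A differed by −0.34 ± 0.05 log2 units per h (adjusted p = 0.000832). LSM1 differed by −0.13 ± 0.03 (adjusted p = 0.00545), with its FPKM going between 0 and 6 h from 31.8 to 37.2 with the control siRNA and from 19.2 to 12.1 with the short-labelled one. Both calls were lost when only the 12 libraries compared were fitted (adjusted p = 0.0632 and 0.111, the highest over the alternatives), and that of LSM1 without the short-labelled library of 6 h (adjusted p = 0.0588). In the both-labelled series LSM1 was again steeper, by −0.10 ± 0.03 (adjusted p = 0.0274), the single called member beside 3.22% of all tested genes lower and 3.83% higher. This was lost in 15 of 43 alternatives, among them leaving out the control library of 0 or 4 h or the both-labelled library of 0, 4 or 6 h (adjusted p from 0.0156 to 0.176). LSM14A was at −0.09 ± 0.05 there (adjusted p = 0.379).

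In the long-labelled series 0 of 7 members differed from the control in slope by limma's adjusted p, and 0 had an unadjusted p under 0.05. Of all tested genes, 0.585% were called lower and 1.25% higher. The smallest p among the members belonged to LSM1, at −0.05 ± 0.03 (adjusted p = 0.463). With its zeros missing, so that its long-labelled values covered only 0 to 2 h, DDX6 was at −0.53 ± 0.17 (adjusted p = 0.188). With the zeros kept it was steeper than the control by −0.88 ± 0.10 and was called (adjusted p = 0.00200), so that its call rests on the values listed at 0. Between the short-labelled and long-labelled series LSM14A was steeper in the former by −0.31 ± 0.05 (adjusted p = 0.00244), 1 of 7 members, beside 4.07% of all tested genes lower and 2.23% higher. This was lost without the long-labelled library of 6 h (adjusted p = 0.0604), without all 6 h libraries (adjusted p = 0.0501) and with only the 12 libraries compared (adjusted p = 0.0612; from 0.000645 over the alternatives). LSM1 was at −0.08 ± 0.03 in that comparison (adjusted p = 0.0733).

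The 2 transcripts of LSM14A in the table both fell in the short-labelled series. NM_015578 stood at 9.60, 10.9, 10.5, 7.12, 3.25 and 1.91 FPKM at 0, 0.5, 1, 2, 4 and 6 h, against 7.64 to 10.9 in the control. NM_001114093 stood at 6.92, 6.66, 5.78, 5.32, 2.40 and 2.67 FPKM, against 6.96 to 8.38 in the control. In the both-labelled series NM_015578 remained at 7.71 to 11.1 FPKM, while NM_001114093 reached 2.06 at 4 h and 5.46 at 6 h. In the long-labelled series NM_001114093 went from 13.6 FPKM at 0 h to 5.37 at 2 h, below its control range, and to 9.51 at 6 h. NM_015578 lay between 8.58 and 13.8 FPKM there. The short-labelled values of NM_001114093 lay below its control range at all 6 times, and those of NM_015578 from 2 h on. How reads were divided between the transcripts is not given in the sources used here. With the more abundant transcript alone, the slope differed from the control by −0.41 (adjusted p = 0.000679; 0.000259 to 0.0632 over the alternatives).

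**Figure D4:**
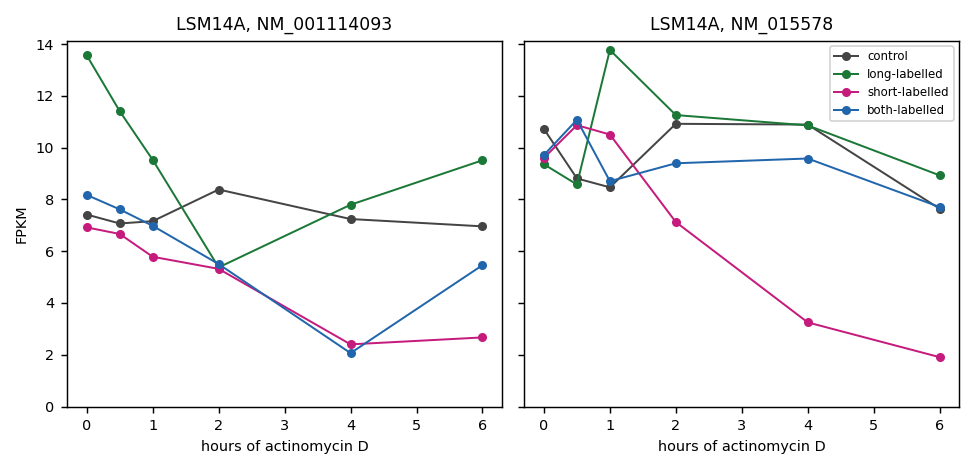
Deposited FPKM (vertical axis, from 0) of the 2 LSM14A transcripts against hours of actinomycin D (horizontal axis), with 1 point per library and 1 line per series. In the short-labelled series NM_015578 ends at 1.91 FPKM and NM_001114093 at 2.67 FPKM at 6 h, both below the control range.

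Of 23 further genes of the pathway listed, 21 were in the table and 12 were tested, with no alternative settings run for single genes. Among them were further subunits of the LSM ring. LSM6 was 1.41 ± 0.11 log2 units above the control in the long-labelled series (2.65-fold, adjusted p = 4.64e-09; 21.3 ± 2.49 against 8.30 ± 1.42 FPKM) and LSM7 0.60 ± 0.06 above it (adjusted p = 6.99e-08). Both were lower in the short-labelled than in the long-labelled series, LSM6 by −1.73 ± 0.11 (adjusted p = 1.41e-10) and LSM7 by −0.83 ± 0.06 (adjusted p = 5.07e-10). Against the control the short-labelled series was at −0.33 ± 0.11 for LSM6 (adjusted p = 0.0127) and −0.23 ± 0.06 for LSM7 (adjusted p = 0.00175), where LSM1 was at −1.14. LSM7 was also 0.35 ± 0.06 higher in the both-labelled than in the short-labelled series (adjusted p = 0.000267). LSM4 went the other way in the long-labelled series against the control, at −0.24 ± 0.04 (adjusted p = 0.000264), and in the short-labelled against the long-labelled series, at 0.13 ± 0.04 (adjusted p = 0.0176). Like LSM6 and LSM7, it was lower in the short-labelled series than in the control, at −0.11 ± 0.04 (limma adjusted p = 0.0476). LSM6 had a negative mean slope over the 4 series, of −0.08 ± 0.02 log2 units per h (adjusted p = 0.000142). LSM3, LSM4 and LSM7 had positive mean slopes of 0.11 ± 0.01, 0.12 ± 0.01 and 0.12 ± 0.01 log2 units per h (adjusted p = 2.59e-09, 2.42e-09 and 3.25e-09).

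EIF4E2, a cap-binding protein that represses translation, was higher than the control in all 3 siRNA series, by 0.71 ± 0.09 log2 units (long-labelled), 0.96 ± 0.09 (short-labelled) and 1.12 ± 0.09 (both-labelled) (adjusted p = 5.67e-06, 9.05e-08 and 1.20e-08). Its FPKM fell from 42.5 at 0 h to 22.0 at 6 h in the control and went from 58.8 to 53.2, from 67.1 to 60.6 and from 69.9 to 72.5 in these series. Its slope was higher than in the control by 0.14 ± 0.02, 0.14 ± 0.02 and 0.14 ± 0.02 log2 units per h (adjusted p = 0.00206, 0.000299 and 0.000284), and the 3 comparisons share the control libraries. XRN2, the nuclear exonuclease related to XRN1, was higher than the control by 0.31 ± 0.03, 0.31 ± 0.03 and 0.41 ± 0.03 (adjusted p = 3.54e-07, 2.36e-07 and 5.53e-09). DCPS, the scavenger enzyme that degrades the cap left after decay from the 3′ end, was 0.54 ± 0.05 above the control in the short-labelled (adjusted p = 9.77e-09) and 0.42 ± 0.05 in the both-labelled series (adjusted p = 2.94e-07). NUDT3, a further decapping hydrolase, was lower by −0.66 ± 0.07 and −0.53 ± 0.07 in them (adjusted p = 1.68e-07 and 2.64e-06), by −0.44 ± 0.07 in the long-labelled series (adjusted p = 3.61e-05), and had a steeper slope than the control in the short-labelled series, by −0.10 ± 0.02 (adjusted p = 0.0117).

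GIGYF2, the partner of EIF4E2, was lost faster than the median gene over the 4 series, at −0.24 ± 0.03 log2 units per h (adjusted p = 1.13e-06), and fell from 7.32 to 1.46 FPKM in the control (−0.32 ± 0.06, adjusted p = 0.000326). PNRC1, a DCP2-binding coactivator, was 0.71 ± 0.17 log2 units higher in the short-labelled than in the long-labelled series (adjusted p = 0.00126). Against the control, the level of 3 of the 12 listed genes was lower and that of 6 higher in the long-labelled series, beside 24.1% and 27.1% of all tested genes. In the short-labelled series 4 were lower and 5 higher (30.7% and 32.7% of all), and in the both-labelled series 1 and 4 (29% and 33%). The slope was lower in 0 and higher in 1 in the long-labelled series (0.585% and 1.25% of all), in 1 and 1 in the short-labelled (4.64% and 4.21%), and in 0 and 1 in the both-labelled series (3.22% and 3.83%).

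PATL1 and DCP2 had the widest spread of the tested members over the 24 libraries, at 3.06 and 2.43 log2 units. The tested genes whose centred values were most like those of PATL1 were RWDD2A, PANK4 and BTBD10 (Pearson r = 0.826, 0.825 and 0.819 over 24 libraries). Those most like DCP2 were ABR, SLC33A1 and MBOAT1 (r = 0.892, 0.886 and 0.882). The libraries of a series share its level, so these values describe the 4 series more than 24 separate points.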

How the data were processed

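RNA from the cytoplasm of U2OS cells was sequenced in 24 libraries. The authors aligned reads with TopHat 1.3.3 to the build hg19, as given per the submitters' processing notes. They deposited FPKM values for 37382 RefSeq transcripts, and how the FPKM were computed is not given in the sources used here. Rows were summed per symbol, and 154 rows with no symbol (0.0141% of the FPKM) were dropped. Reads that match several transcripts or gene copies could have been divided or lost. FPKM are relative levels whose depth is unknown, so counting error is not given.

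The mean reached 1 FPKM in 9937 genes. A dash removed 503 of them, and a 0 beside a value of 1 FPKM or more at the neighbouring time of the series removed 1574, which left 7860 for log2(FPKM + 0.1) values minus the library median. The labels name no spike-in, so slopes are relative to the median gene and are not half-lives. All 24 libraries entered limma 3.58.1 (R 4.3.3), with the mean-variance trend on. The model for levels held series and time as a factor. The model for slope differences added hours within series, so that the shared time of the replicate numbers acted as a block in both, while slopes within a series came from straight lines. Benjamini-Hochberg adjustment ran over all tested genes, with calls at an adjusted p under 0.05. PAN3 was compared by a two-sided exact sign-flip test in FPKM over 6 matched times. The fits were tested on simulated data.

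The members and gene lists were chosen with earlier results of these data known. Named genes were the 10 members, up to 4 called genes of the further pathway list in each comparison, by smallest p, and the 3 genes most correlated with the 2 members of widest range. Comparisons of the both-labelled series with the short-labelled and with the long-labelled one were chosen after seeing the data. The alternatives were a pseudocount of 1 or 0.01; a filter on the mean at 0.1 FPKM, at 5 FPKM or absent; no centring or quantile normalisation; zeros kept or missing; the most abundant transcript alone; no trend; no block; a fit of only the 12 libraries compared; and each time or library left out.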

Additional observations from a re-analysis of the deposited data

Results flagged for a closer look

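In 4 of the 28 groups of 6 libraries examined (7 tested members in 4 series), the centred log2 value of a single library stood further from the rest than Dixon's critical value for 6 samples allows. Chance gives about 1 in 20 groups for independent samples of 1 normal distribution. The libraries of a group are successive times of a course, so that rate need not hold here. For DCP2 these were the short-labelled library of 2 h, at 2.13 FPKM, and the both-labelled library of 0.5 h, at 1.19 FPKM. For PATL1 they were the control library of 4 h, at 3.26 FPKM, and the both-labelled library of 2 h, at 16.8 FPKM. On the FPKM scale the DCP2 both-labelled and PATL1 control libraries still did, the other pair did not, and the control libraries of 0.5 h for EDC3 and of 0 h for LSM1 did instead. Without the library in question DCP2 was 1.99 log2 units above the control in the short-labelled and 1.81 in the both-labelled series.

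In 4 cases the slope of a member differed between series by limma's test of the difference itself, at an adjusted p under 0.05, among 7 tested members in 4 comparisons. Of all tested genes, 0.585% were called lower and 1.25% higher in the long-labelled series against the control. The shares were 4.64% and 4.21% in the short-labelled, 3.22% and 3.83% in the both-labelled, and 4.07% and 2.23% in the short-labelled against the long-labelled series. The slope of LSM1 was lower than in the control by −0.13 log2 units per h in the short-labelled and by −0.10 in the both-labelled series. LSM14A was steeper in the short-labelled series by −0.34 than in the control and by −0.31 than in the long-labelled series. Each of these calls was lost with only the 12 libraries compared. What underlies these differences was not tested.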

How the results depend on the processing

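Over the settings run, the number of called members moved by more than 1.5 times in these cases. For control slopes it went from 3 to 1 with a filter at 5 FPKM, without centring and with quantile normalisation. Without a filter it went to 5 (1 lower and 4 higher), but of 8 members tested. LSM14A was newly called there, at 0.08 (adjusted p = 0.0429). The other new call was that of the added member, by the stated rules DCP1B, listed at 0 in 23 of 24 libraries. A value that stays at 0 rises against a falling library median. For mean slopes the number went from 4 to 2 at 5 FPKM. Without centring or with quantile normalisation it was 3, all of them lower. Slope differences went from 0 to 1 with zeros kept for the long-labelled series (DDX6), from 2 to 0 with only the 12 libraries compared for the short-labelled (1 to 2 with a library or time left out), and from 1 to 0 without a filter, at 0.1 FPKM, without centring, with quantile normalisation or with 12 libraries for the both-labelled (0 to 1 with a library or time left out). Between the short-labelled and long-labelled series they went from 1 to 2 with zeros kept (DDX6 again) and to 0 with 12 libraries (0 to 2). Levels went from 5 to 3 without the replicate block for the both-labelled series against the control. Between the both-labelled and short-labelled series they went from 1 to 0 without a filter and to 2 at 5 FPKM, with zeros kept, with zeros missing and with 12 libraries (0 to 1 with a library or time left out), and against the long-labelled series from 5 to between 3 and 6. EDC3 slopes reversed without centring (−0.00739 in the control, −0.0129 over 4 series) and with quantile normalisation (−8.59e-05 over 4 series).

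Over all tested genes, slope calls ranged from 0 to 161 around 144 in the long-labelled, from 54 to 739 around 696 in the short-labelled, from 54 to 614 around 554 in the both-labelled series and from 92 to 529 around 495 between short-labelled and long-labelled series, lowest with 12 libraries. Control slope calls numbered 3683, 1315 of them lower, and without centring 3042, 1939 lower. Over the 4 series there were 5285 (1927 lower) and without centring 4806 (2794 lower). Without a filter, where more genes were tested, they numbered 8265 and 11189, most of them higher. The replicate block left out gave 2551 against 4023 level calls for the long-labelled series and 270 against 1379 between the both-labelled and short-labelled series.

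PAN3 differed from the control by −0.359 to 0.0338 FPKM in the long-labelled, 1.28 to 1.72 in the short-labelled and 0.135 to 0.737 in the both-labelled series with each time left out. With no repeated time, no read counts and low FPKM for DCP2, DCP1B and XRN1, differences in these members of less than the scatter between times were not detectable.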
